A study of Mus musculus with 28 samples.

Results

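The renin-angiotensin system was followed through 8 genes, Ren1, Agt, Ace, Agtr1a, Mme, Enpep, Anpep and Atp6ap2, chosen by gene symbol from a kidney RNA-seq table of 14845 genes. All 8 were in the table, and all 8 were among the 13495 genes tested, which had a normalised value of at least 1 in at least 5 of the 28 libraries. The libraries came from kidneys of male mice in 4 groups. Diabetic, obese db/db mice, which carry 2 mutant copies of the leptin receptor gene and had 1 kidney removed (uninephrectomised, Unx), were sampled at 26 weeks of age (n = 12) and at 35 weeks (n = 5). Lean db/m mice with both kidneys (intact), the non-diabetic controls, were sampled at 26 weeks (n = 5) and at 35 weeks (n = 6). Every db/db mouse was Unx and every db/m mouse was intact, so genotype and surgery cannot be told apart and are called the disease comparison. The study uses the Unx db/db mouse to model advanced kidney disease of diabetes. The labels do not say whether the libraries are separate animals, and each was counted as 1. If some share an animal, the p-values reflect library spread, which may be technical.

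In this system, renin, a protease released by juxtaglomerular cells at the glomerular arteriole, cuts angiotensinogen to angiotensin I. Angiotensin-converting enzyme trims that peptide to angiotensin II, which raises vascular tone and tubular sodium uptake through the type 1 receptor. Neprilysin and the aminopeptidases A and N, all anchored on the brush border of the proximal tubule among other sites, break the angiotensins down. The kidney makes its own angiotensinogen, mainly in the proximal tubule, in addition to what the liver delivers through the blood.

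Values are the deposited normalised values, which scale with the reads of a gene and are not corrected for gene length. Estimated depth was 21.8 to 30.8 M (mega) reads per library. At that depth the 8 genes were read from an estimated 465 (the lowest library for Ace) to 7453 times (the highest library for Agt). Fold changes are log2 differences between groups of log2(value + 1) with the standard error of limma, a linear model fitted to all tested genes. A gene was called at a Benjamini-Hochberg adjusted p below 0.05 over all 13495 genes. On the second principal component of all tested genes, which held 9.17% of the variance, replicates 3, 5 and 6 of db/db Unx at 35 weeks lay apart from all other libraries, at 42.8, 26.7 and 20.1 against at most 9.21. Calls that changed without these 3 libraries are named beside the result, for the 8 members and, in an alternative added after the data were seen, for the genes of the lists. Over all genes, 2407 were called at 35 weeks without them, in place of 4357, and 8 with age in db/db Unx, in place of 1526. The fit without them kept only replicates 1 and 2 of db/db Unx at 35 weeks. Whether a lost call came from the 3 libraries themselves or from the smaller group was not tested.

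The 250 bases before the start sites of the substrate gene, the converting enzyme gene and the renin gene are shown, because the first 2 changed the most and in opposite directions and the third opens the cascade. RefSeq promoters matched 7 of the 8 members (Ren1, Agt, Ace, Mme, Enpep, Anpep and Atp6ap2), and these are its sequences of GRCm38.p6, 5′ to 3′ on the strand of the gene. Of 2 Ace windows the one that lies upstream is shown. Capitals mark matches on either strand to the TATA motif TATAAA and the GC box GGGCGG, which were searched with CCAAT and the androgen and glucocorticoid receptor motif AGAACA.
Agt, chr8:124569707-124569956, minus strand: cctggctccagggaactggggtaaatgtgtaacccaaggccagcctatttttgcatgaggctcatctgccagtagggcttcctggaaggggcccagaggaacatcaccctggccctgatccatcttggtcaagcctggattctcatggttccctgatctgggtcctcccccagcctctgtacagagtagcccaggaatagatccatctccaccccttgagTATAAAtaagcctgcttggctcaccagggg
Ace, chr11:105967698-105967947, plus strand: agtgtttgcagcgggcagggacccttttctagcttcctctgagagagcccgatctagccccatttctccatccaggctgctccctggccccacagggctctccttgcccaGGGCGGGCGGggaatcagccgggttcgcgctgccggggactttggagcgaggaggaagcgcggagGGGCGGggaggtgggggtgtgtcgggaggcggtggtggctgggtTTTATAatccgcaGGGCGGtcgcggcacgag
Ren1, chr1:133350424-133350673, plus strand: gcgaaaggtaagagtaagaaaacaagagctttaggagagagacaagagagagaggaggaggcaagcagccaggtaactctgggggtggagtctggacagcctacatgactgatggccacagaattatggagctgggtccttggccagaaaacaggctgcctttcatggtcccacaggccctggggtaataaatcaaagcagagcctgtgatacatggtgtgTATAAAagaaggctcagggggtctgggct
TATAAA lay at positions -30 to -25 before the Agt start and -29 to -24 before the Ren1 start, on the sense strand in both. The Ace window held it on the opposite strand at -31 to -26, with 4 GC boxes on the sense strand, 2 of which overlap. Of 32851 RefSeq promoter windows of the same length, 12.4% held TATAAA and 32.7% held GGGCGG. Neither CCAAT, held by 33.8% of all windows, nor AGAACA, held by 16.1%, was in the 3 windows shown. The other Ace window, before the start at 105975189, held CCAAT on the opposite strand at -25 to -21 and none of the other 3 motifs. A match describes the letters only.

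Across the disease comparison, 1 member rose and 4 fell at 26 weeks, where 17.2% of all genes tested were called higher and 17.7% lower (34.9% in all). At 35 weeks 1 rose and 6 fell, where 15.9% of genes were called higher and 16.4% lower (32.3% in all). The median log2 change of the 8 members was -0.38 at 26 weeks and -0.36 at 35 weeks, and that of all genes tested was 0.020 and 0.012. Agt rose, Ace, Mme, Anpep and Agtr1a fell at both ages, and Ren1 and Enpep were called lower at 35 weeks. Values of db/db Unx and db/m libraries did not overlap for 4 members at 26 weeks (Agt, Ace, Mme, Agtr1a) and for 4 at 35 weeks (Agt, Ace, Mme, Anpep), where 12.8% and 18.1% of all genes tested had no overlap.

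**Figure D1:**
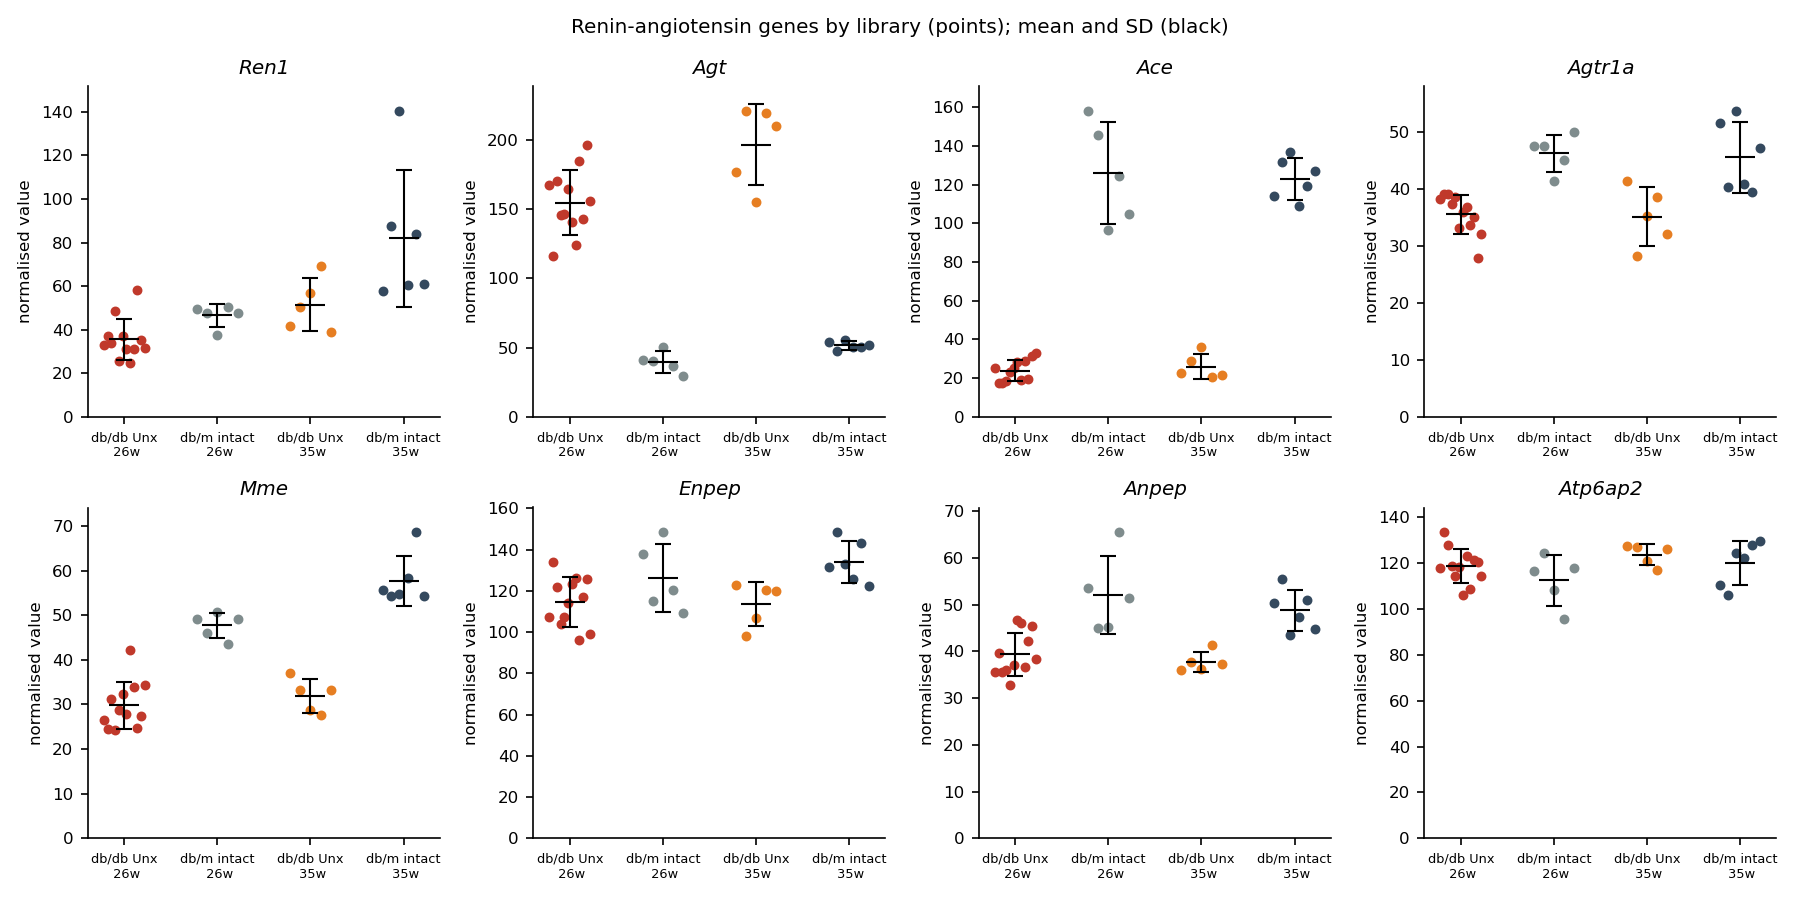
Normalised value (y axis, from 0, not corrected for length) of the 8 genes in each of the 28 libraries, in the 4 groups; points are libraries, black bars the mean and SD. Agt is higher in every db/db Unx library than in every db/m library and Ace is lower, while Atp6ap2 lies between 95.6 and 134 in all 28.

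Agt (ENSMUSG00000031980, GRCm38 chromosome 8, 124556534 to 124569706, minus strand) encodes angiotensinogen, the only known substrate of renin. At 26 weeks its lowest, median and highest values were 116, 151 and 196 in the 12 db/db Unx kidneys, against 40.9, 40.0, 50.8, 36.9 and 29.4 in the 5 db/m kidneys. Every db/db Unx kidney lay far above the highest db/m kidney. The means were 155 ± 23.4 (SD, n = 12) in db/db Unx and 39.6 ± 7.69 (SD, n = 5) in db/m, a log2 change of 1.94 ± 0.10 or 3.85-fold (limma, adjusted p 1.78e-15). At 35 weeks db/db Unx kidneys had 177, 221, 155, 219.6 and 209.9, against 47.3, 51.1 and 55.6 (lowest, median and highest) in the 6 db/m kidneys. The groups again lay far apart, with a log2 change of 1.90 ± 0.12 or 3.73-fold (limma, adjusted p 8.08e-14). Agt had the 39th highest log2 change of the 13495 genes at 26 weeks and the 57th highest at 35 weeks.

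Agt was also called higher at 35 weeks than at 26 weeks in both db/db Unx and db/m kidneys, though neither call was stable. In db/db Unx kidneys the mean was 197 ± 29.2 (SD, n = 5) at 35 weeks and 155 ± 23.4 (SD, n = 12) at 26 weeks, a log2 change of 0.35 ± 0.10 (limma, adjusted p 0.0293). In db/m kidneys it was 51.6 ± 3.01 (SD, n = 6) at 35 weeks and 39.6 ± 7.69 (SD, n = 5) at 26 weeks, a log2 change of 0.39 ± 0.12 (limma, adjusted p 0.0386). Both comparisons of age had overlapping libraries, and both calls sat near the threshold. In db/db Unx the adjusted p was 0.0790, 0.121 and 0.0967 without replicates 2, 5 and 6 of 35 weeks, and 0.519 without the 3 libraries that lay apart. In db/m it was above 0.05 without any 1 of 8 of the 11 libraries (replicates 2, 4 and 5 of 26 weeks and 1, 3, 4, 5 and 6 of 35 weeks), up to 0.152 without replicate 5 of 26 weeks.

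Ace (ENSMUSG00000020681, chromosome 11, 105967945 to 105989964, plus strand) encodes angiotensin-converting enzyme, a membrane peptidase of endothelium and, in the kidney, of the proximal tubule brush border. Its lowest, median and highest values at 26 weeks were 17.5, 24.1 and 33.0 in db/db Unx kidneys, against 158, 146, 96.6, 125 and 105 in db/m kidneys. The highest db/db Unx kidney stood far below the lowest db/m kidney. Means were 23.9 ± 5.58 (SD, n = 12) in db/db Unx and 126 ± 26.2 (SD, n = 5) in db/m, and the log2 change of -2.36 ± 0.15 was 5.12-fold lower in db/db Unx (limma, adjusted p 1.94e-13). At 35 weeks the values were 22.4, 28.6, 36.1, 20.4 and 21.8 in db/db Unx kidneys, against 109, 123 and 137 (lowest, median and highest) in db/m kidneys. With a log2 change of -2.23 ± 0.17, 4.70-fold lower in db/db Unx (limma, adjusted p 1.29e-11), the separation was as complete as at 26 weeks. In the order of all genes, Ace had the 32nd lowest log2 change at 26 weeks and the 55th lowest at 35 weeks. Age gave no call in Ace, with log2 changes of 0.11 ± 0.15 in db/db Unx (95% interval -0.19 to 0.41) and -0.014 ± 0.17 in db/m (-0.36 to 0.33). A long non-coding gene on the opposite strand, Gm11651, shares 295 exonic bases with Ace and was not analysed here. The library preparation does not mark strand, so reads of Gm11651 and Ace over those bases cannot be told apart by strand.

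Per kilobase of merged exon, Agt and Ace stood side by side in control kidneys and far apart in diseased ones. At 26 weeks Agt had 81.8 ± 12.4 per kilobase and Ace 4.53 ± 1.06 in db/db Unx (SD, n = 12), against 20.9 ± 4.07 for Agt and 23.8 ± 4.96 for Ace in db/m (SD, n = 5), where their ranges overlapped. At 35 weeks Agt had 104 ± 15.4 and Ace 4.89 ± 1.23 in db/db Unx (SD, n = 5), against 27.3 ± 1.59 and 23.3 ± 2.03 in db/m (SD, n = 6). Agt was first among the 8 genes in both db/db Unx groups, with no overlap with Atp6ap2, which was second. In db/m kidneys Atp6ap2 came first at 26 weeks, at 43.0 ± 4.21 per kilobase, with no overlap with Ren1 below it. At 35 weeks Ren1 had the highest db/m mean, at 49.5 ± 19.0 per kilobase, and its range overlapped that of Atp6ap2, at 45.9 ± 3.69. Mme was last in every group, at 2.59 ± 0.459 in db/db Unx and 4.13 ± 0.251 in db/m at 26 weeks and at 2.77 ± 0.331 in db/db Unx and 5.00 ± 0.485 in db/m at 35 weeks. Ace was seventh in both db/db Unx groups, with a range that overlapped that of Mme at 26 weeks and not at 35 weeks, against rank 4 and rank 5 in db/m. The order rests on merged exon lengths, which join the exons of all annotated transcripts (11542 bases for Mme and 5287 for Ace). The lengths of the transcripts present in these kidneys were not measured.

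**Figure D2:**
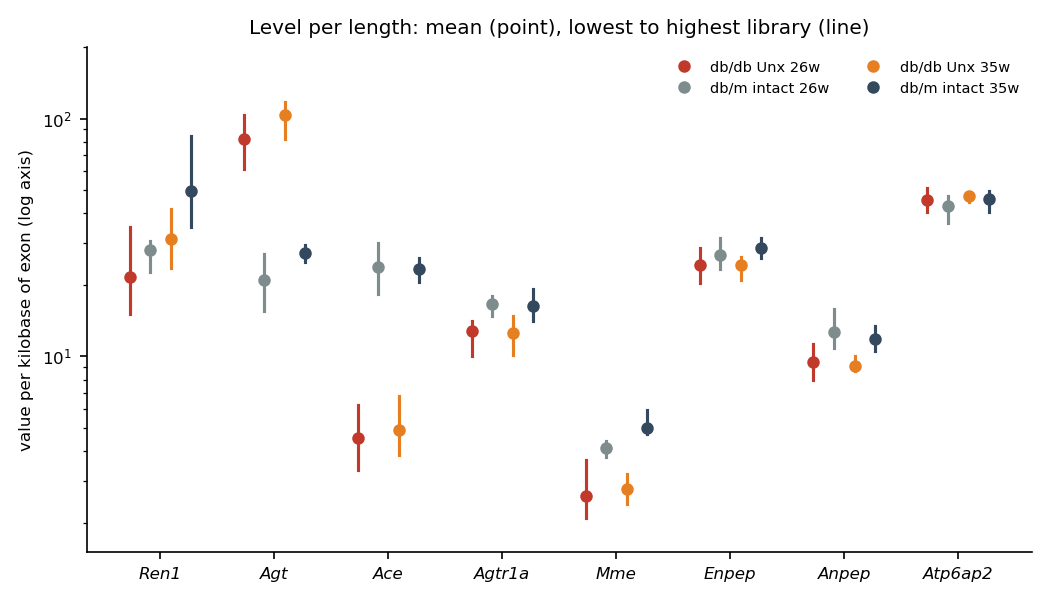
Value per kilobase of merged exon (log axis) of the 8 genes in the 4 groups; points are group means, lines run from the lowest to the highest library. Agt moves above all other members in db/db Unx kidneys, while Ace drops from the middle of the order to just above Mme.

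Ren1 (ENSMUSG00000070645, chromosome 1, 133350510 to 133360325, plus strand) encodes renin. The reference genome holds 1 renin gene, whereas some mouse strains carry another, nearly identical copy, and the labels do not name the background strain beyond db/db and db/m, so reads of such a copy would be counted here as Ren1. At 26 weeks the lowest, median and highest values were 24.9, 33.3 and 58.1 in db/db Unx kidneys, against 49.6, 47.5, 37.7, 50.4 and 47.8 in db/m kidneys. Most db/db Unx kidneys lay below db/m, yet replicate 10 had the highest value of both groups. The log2 change of -0.41 ± 0.18 was not called (limma, adjusted p 0.0861), and without replicate 10 it was -0.47 (limma, adjusted p 0.0294). At 35 weeks db/db Unx kidneys had 41.9, 50.4, 57.1, 69.2 and 38.9, against 57.8, 72.6 and 141 (lowest, median and highest) in db/m kidneys. The groups overlapped, and db/m replicate 3, at 141, stood well above the next library at 87.6. Ren1 was called lower in db/db Unx at 35 weeks, with a log2 change of -0.62 ± 0.21 or 1.53-fold (limma, adjusted p 0.0241). That call was lost without db/m replicate 3 (adjusted p 0.0646), without db/db Unx replicate 1 (0.0621) or 6 (0.0765), and without the 3 libraries that lay apart (0.0668).

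With age, Ren1 in db/m kidneys was higher at 35 weeks, at 81.9 ± 31.5 (SD, n = 6), than at 26 weeks, at 46.6 ± 5.14 (SD, n = 5), and the 2 ages did not overlap. The log2 change of 0.74 ± 0.21 (limma, adjusted p 0.0295) was the 59th highest of all genes in a comparison that called 7.4% of genes and 2.73% higher. Leaving out any 1 of 6 of the 11 libraries (replicates 2, 3 and 5 of each age) gave an adjusted p between 0.0520 and 0.0744, and the log2 change then stayed at 0.57 or more. In db/db Unx kidneys Ren1 averaged 51.5 ± 12.2 (SD, n = 5) at 35 weeks and 35.6 ± 9.31 (SD, n = 12) at 26 weeks, with overlap. That log2 change of 0.53 ± 0.18 was not called (limma, adjusted p 0.0627), and was called without 26-week replicate 4 (0.0449) or 10 (0.0233). Of the 8 members, 1 was called in the age comparison of db/db Unx (Agt, higher), where 11.3% of all genes were called and 5.16% were called higher. In db/m 2 were called (Agt and Ren1, higher). Mme values of db/m kidneys did not overlap between the ages either, and were higher at 35 weeks, which held for 4.99% of all genes in either direction, but the log2 change of 0.27 ± 0.11 was not called (limma, adjusted p 0.132).

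Agtr1a (ENSMUSG00000049115, chromosome 13, 30336441 to 30382867, plus strand) encodes the main type 1 angiotensin II receptor of the rodent kidney. At 26 weeks its lowest, median and highest values were 27.9, 36.3 and 39.2 in db/db Unx kidneys, against 47.6, 47.5, 41.4, 45.0 and 49.9 in db/m kidneys. No db/db Unx kidney reached the lowest db/m kidney, and the log2 change was -0.37 ± 0.08 or 1.30-fold lower in db/db Unx (limma, adjusted p 0.000526). At 35 weeks db/db Unx kidneys had 41.3, 28.2, 35.3, 38.5 and 32.1, against 39.4, 44.03 and 53.7 (lowest, median and highest) in db/m kidneys. Replicate 1 of db/db Unx fell inside the db/m range, and the log2 change was -0.37 ± 0.10 (limma, adjusted p 0.00273). The paralog Agtr1b and the type 2 receptor gene Agtr2 were not analysed here.

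Mme (ENSMUSG00000027820, chromosome 3, 63241537 to 63386030, plus strand) encodes neprilysin, which cuts angiotensin I to shorter peptides and degrades many others, and which podocytes carry besides the proximal tubule. Its lowest, median and highest values at 26 weeks were 24.2, 28.3 and 42.3 in db/db Unx kidneys, against 49.2, 46.1, 50.7, 43.5 and 49.1 in db/m kidneys. The highest db/db Unx kidney, replicate 8, came close to the lowest db/m kidney without reaching it. The log2 change was -0.68 ± 0.09, 1.60-fold lower in db/db Unx (limma, adjusted p 3.08e-07). At 35 weeks db/db Unx kidneys had 37.0, 33.3, 28.7, 27.6 and 33.3, against 54.2, 55.2 and 68.7 (lowest, median and highest) in db/m kidneys. The gap between the groups was wide, and the log2 change was -0.83 ± 0.11, 1.78-fold lower in db/db Unx (limma, adjusted p 7.42e-08).

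Anpep (ENSMUSG00000039062, chromosome 7, 79821803 to 79861059, minus strand) encodes aminopeptidase N, which takes single residues off the end of angiotensin III and other peptides. At 26 weeks its lowest, median and highest values were 32.8, 37.7 and 46.6 in db/db Unx kidneys, against 53.5, 45.04, 45.3, 65.5 and 51.4 in db/m kidneys. The groups touched at their edges, and the log2 change was -0.39 ± 0.08 (limma, adjusted p 0.000204). At 35 weeks db/db Unx kidneys had 36.0, 37.6, 36.3, 41.4 and 37.3, all below the db/m kidneys at 43.5, 48.8 and 55.4 (lowest, median and highest). The log2 change there was -0.36 ± 0.09, 1.28-fold lower in db/db Unx (limma, adjusted p 0.00264).

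Enpep (ENSMUSG00000028024, chromosome 3, 129269175 to 129332720, minus strand) encodes aminopeptidase A, which turns angiotensin II into angiotensin III. Its values at 26 weeks were 95.9, 116 and 134 (lowest, median and highest) in db/db Unx kidneys, against 138, 115, 148, 120.3 and 109 in db/m kidneys. The groups overlapped in part, with 5 of 12 db/db Unx kidneys below every db/m kidney and 2 of 5 db/m kidneys above every db/db Unx kidney, and the log2 change of -0.14 ± 0.07 was not called (limma, adjusted p 0.15, 95% interval -0.28 to 0.012). At 35 weeks db/db Unx kidneys had 123, 98.3, 107, 120.3 and 119.8, against 122, 132 and 149 (lowest, median and highest) in db/m kidneys. Here 4 of 5 db/db Unx kidneys lay below every db/m kidney, and the log2 change of -0.24 ± 0.08 was called lower (limma, adjusted p 0.0237). That call was lost without db/m replicate 2 (adjusted p 0.0642), without db/db Unx replicate 2 (0.0939) or 3 (0.0601), without the 3 libraries that lay apart (0.0857) and after quantile normalisation (0.132).

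Atp6ap2 (ENSMUSG00000031007, chromosome X, 12587801 to 12617049, plus strand) encodes the prorenin receptor, which is also an accessory subunit of the vacuolar proton pump (V-ATPase). At 26 weeks it averaged 119 ± 7.59 (SD, n = 12) in db/db Unx and 113 ± 11.03 (SD, n = 5) in db/m, a log2 change of 0.081 ± 0.06 (limma, adjusted p 0.287, 95% interval -0.034 to 0.20). At 35 weeks it averaged 124 ± 4.59 (SD, n = 5) in db/db Unx and 120.2 ± 9.65 (SD, n = 6) in db/m, a log2 change of 0.044 ± 0.06 (limma, adjusted p 0.654, 95% interval -0.087 to 0.17). The libraries of the 4 groups overlapped, and the intervals leave room for a change of at most 0.20 on the log2 scale. After quantile normalisation the 26-week difference was called, at 0.16 (limma, adjusted p 0.0222).

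**Figure D3:**
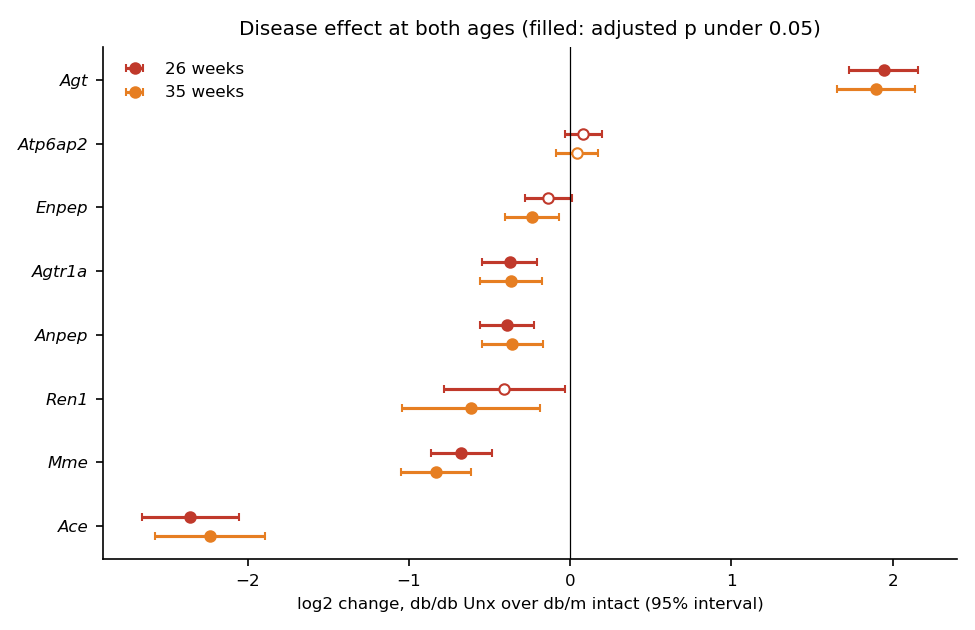
Log2 change of db/db Unx over db/m intact kidneys (x axis) with its 95% interval for the 8 genes at 26 and 35 weeks; filled points were called at an adjusted p under 0.05. Agt lies at 1.94 and 1.90 and Ace at -2.36 and -2.23, and the other members lie between -0.83 and 0.081.

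The disease effect at 35 weeks was compared with that at 26 weeks in one model. None of the 8 members was called for that difference by limma (adjusted p 0.71 to 0.993, and 0 members at an unadjusted p under 0.05), where 0.548% of all genes were called. For Ace the difference was 0.12 ± 0.22 (95% interval -0.33 to 0.58), and for Agt it was -0.047 ± 0.16 (-0.37 to 0.28). The interval for Ren1 was the widest of the 8, from -0.78 to 0.36. Passing the threshold at 35 weeks and missing it at 26 weeks, as Ren1 and Enpep did, is therefore not shown to be a change with age.

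Further genes that make, cut or sense angiotensins came from a list of 18, of which 12 were tested. At 26 weeks 1 of the 12 rose and 2 fell, and at 35 weeks 2 rose and 3 fell, near the shares of all genes, with list medians of 0.036 and 0.018. Mas1, the receptor for angiotensin 1-7, was rare and fell, with means of 1.06 ± 0.752 in db/db Unx (SD, n = 12) and 3.94 ± 1.34 in db/m (SD, n = 5) at 26 weeks, a log2 change of -1.29 ± 0.24 (limma, adjusted p 4.38e-05) that was -1.11 ± 0.27 at 35 weeks. Without the 3 libraries that lay apart, the 35-week value of Mas1 was -0.95 and not called (limma, adjusted p 0.0728). Prcp, a carboxypeptidase that can also shorten angiotensin II, fell by 0.53 at 26 weeks and by 0.35 at 35 weeks on the log2 scale. Ctsd, the lysosomal aspartyl protease cathepsin D, rose by 0.39 and 0.58. Lnpep, an angiotensin IV binding aminopeptidase, rose by 0.25 and Rnpep, aminopeptidase B, fell by 0.31 at 35 weeks, and neither was called at 26 weeks. Klk1, tissue kallikrein, was not called at either age and was not counted in the kinin list below. For the change of the disease effect with age 0 of the 12 were called, so a call at 1 age is not shown to differ from the other.

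The kinin system shares its peptidases with the angiotensins, since angiotensin-converting enzyme and neprilysin also destroy bradykinin. Of 8 listed genes 7 were tested, and 4 rose and 1 fell at 26 weeks, and 5 rose and 1 fell at 35 weeks, with medians of 0.66 at both ages against 0.020 and 0.012 for all genes, of which 17.2% and 15.9% were called higher and 17.7% and 16.4% lower. Without the 3 libraries that lay apart, 2 rose and 0 fell at 35 weeks (Kng2 and Cpn1, higher), with a median of 0.58. Kng2, a kininogen gene, had 328 ± 23.1 in db/db Unx (SD, n = 12) and 207 ± 21.9 in db/m (SD, n = 5) at 26 weeks, a log2 change of 0.66 ± 0.06 (limma, adjusted p 3.82e-11). Cpn1, a kinin-trimming carboxypeptidase subunit, rose by 0.98 ± 0.09 at 26 weeks and by 0.93 ± 0.10 at 35 weeks. Xpnpep2, the membrane aminopeptidase P that degrades bradykinin, rose by 1.29 ± 0.22 and 1.01 ± 0.25, and Kng1 by 0.75 and 0.66. Kng1 and Kng2 are close paralogs, so the division of reads between them is uncertain. Bdkrb2, the constitutive kinin receptor, was called higher at 35 weeks (1.21 ± 0.31), and Cpm, a further carboxypeptidase, fell by 0.40 and 0.41. The calls of 4 genes at 35 weeks were lost without the 3 libraries (limma), with Xpnpep2 at 0.85 (adjusted p 0.0949), Kng1 at 0.40 (0.417), Bdkrb2 at 0.94 (0.132) and Cpm at -0.11 (0.671).

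Other peptidases of the proximal tubule brush border went in both directions. Of 9 listed genes 8 were tested, and 3 rose and 4 fell at both ages, so that the share called was above the 34.9% and 32.3% of all genes. Without the 3 libraries that lay apart, 1 rose and 4 fell at 35 weeks, with Xpnpep2, which both lists hold, and Dpep1, a dipeptidase, at 0.28 (limma, adjusted p 0.164), no longer called. Mep1b, the meprin beta subunit, fell to 17.0 ± 3.63 in db/db Unx (SD, n = 12), against 105 ± 16.7 in db/m (SD, n = 5), at 26 weeks, a log2 change of -2.58 ± 0.14 (limma, adjusted p 7.88e-16). Mep1a, the meprin alpha subunit, fell by 0.96 at 26 weeks and by 1.00 at 35 weeks, and Ggt1, gamma-glutamyltransferase, by 0.93 and 0.90. Folh1, a carboxypeptidase that releases glutamate, rose by 1.12 and 1.09. Cltrn, which encodes collectrin, a membrane protein that amino acid transporters of the proximal tubule need, fell by 0.22 at 26 weeks and by 0.37 at 35 weeks.

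**Figure D4:**
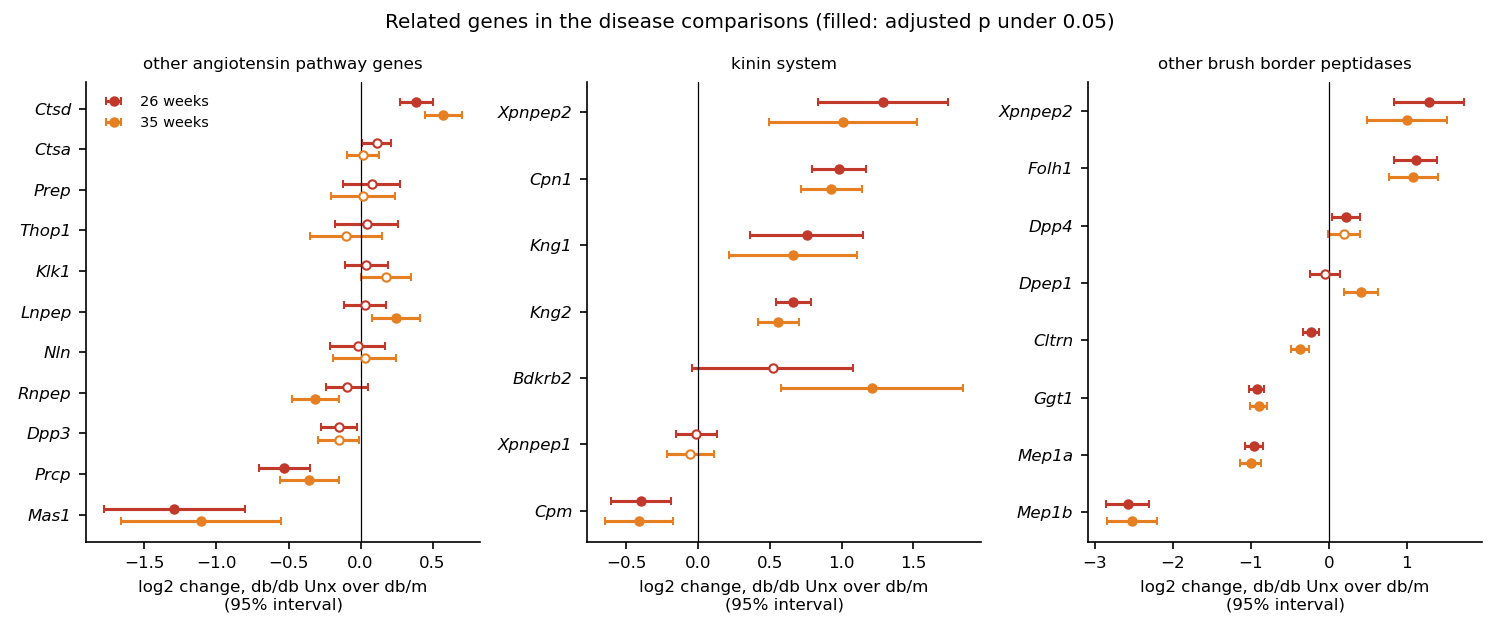
Log2 change of db/db Unx over db/m intact kidneys (x axis) with its 95% interval at 26 and 35 weeks for tested genes of 3 lists; filled points were called. Mas1 and Prcp fall and Ctsd rises among the angiotensin genes, kininogen and Cpn1 rise, and Mep1b falls furthest among the brush border peptidases.

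In whole kidney, fewer cells of a type and less RNA per cell cannot be told apart, so markers of the cells that carry these genes were read beside them. Of 11 proximal tubule markers 0 rose and 7 fell at 26 weeks and 0 rose and 8 fell at 35 weeks, where 17.7% and 16.4% of all genes were called lower. The markers differed widely in size. Slc22a7, an organic anion transporter, had 7.75 ± 3.31 in db/db Unx (SD, n = 12) and 223 ± 31.3 in db/m (SD, n = 5) at 26 weeks, 27.4-fold lower in db/db Unx (limma, adjusted p 3.37e-12), and was 16.7-fold lower at 35 weeks (adjusted p 1.03e-09). Slc7a13, an amino acid transporter, had 55.5 ± 24.1 in db/db Unx and 706 ± 63.4 in db/m at 26 weeks, 13.6-fold lower in db/db Unx (limma, adjusted p 1.08e-10), and was 29.7-fold lower at 35 weeks (adjusted p 1.26e-11). Both lay further below db/m than Ace did. The other called markers lay between -0.56 (Lrp2) and -0.21 (Hnf4a) at 26 weeks and between -0.74 (Lrp2) and -0.26 (Cubn) at 35 weeks on the log2 scale. Slc22a8, Slc5a12 and Slc5a2 were not called at either age, and stood at 0.22, -0.16 and -0.095 at 35 weeks. At that age 1 of the 11, Slc22a8, was higher in every db/db Unx library than in every db/m library, and 7 were lower in every one. Of all genes tested, 18.1% had no overlap at 35 weeks in either direction. The summed values of all 11 ran from 7778 to 9502 in db/db Unx and from 10925 to 11938 in db/m at 26 weeks. At 35 weeks they ran from 7226 to 8526 in db/db Unx and from 10940 to 12084 in db/m. These sums weigh each marker by its level and include Slc7a13 and Slc22a7. Of 7 endothelial markers 3 fell at 26 weeks (summed values 164 to 197 in db/db Unx and 230.5 to 289 in db/m) and 2 at 35 weeks (165 to 214 in db/db Unx and 221 to 249.6 in db/m). The endothelial median log2 change was -0.35 at 26 weeks and -0.020 at 35 weeks. At 35 weeks Kdr (-0.53) and Emcn (-0.58) were called. Ehd3 (-0.26), Pecam1 (-0.020), Flt1 (-0.0014), Tek (0.00018) and Cdh5 (0.30) were not. Both marker sums thus lay lower in every db/db Unx library than in every db/m library of the same age, and Ace, Mme, Anpep and Agtr1a moved in the same direction. The part of these cells in the results was not tested. Of 7 podocyte markers 2 rose at 26 weeks and 3 at 35 weeks, and of 8 mesangial, pericyte and smooth muscle markers 3 and 2 rose, with none of either list lower, where 34.9% and 32.3% of all genes were called. Of 6 macrophage markers 2 fell at 26 weeks and 3 rose at 35 weeks. Without the 3 libraries that lay apart, 0 podocyte, 0 mesangial, pericyte and smooth muscle and 0 macrophage markers were called at 35 weeks, while 8 proximal tubule and 2 endothelial markers fell. Akr1b7, which juxtaglomerular cells express beside Ren1, had 1.72 ± 0.736 in db/db Unx (SD, n = 12) and 2.23 ± 1.16 in db/m (SD, n = 5) at 26 weeks, and was not called at either age. All 4 liver genes rose at both ages, with Serpina1a making up most of their sum (152 to 263 in db/db Unx and 60.6 to 126 in db/m at 26 weeks). Alb, the defining hepatocyte gene, had 7.68 ± 1.71 in db/db Unx (SD, n = 12) and 2.25 ± 0.688 in db/m (SD, n = 5) at 26 weeks, values far below those of Agt, and its part in the Agt result was not tested. At 35 weeks Alb was not called without the 3 libraries (limma, adjusted p 0.0574), and the other 3 were. The 2 adrenal markers in the table, Star and Hsd3b1, summed to at most 4.23 in every library and were not called.

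Within the 12 db/db Unx kidneys of 26 weeks the members did not move as 1 block. Of their 28 pairs, 0 passed an adjusted p of 0.05 by Pearson correlation (7 at an unadjusted p under 0.05) and 1 passed by Spearman correlation (5 unadjusted), in permutation tests of log2 values. That pair was Ace with Agtr1a, which ran in opposite directions (permutation test, n = 12, Pearson r = -0.75, p = 0.00369, adjusted 0.103, Spearman rho = -0.84, p = 0.00133, adjusted 0.0372). Without the 2 libraries farthest from the Ace median the Pearson r was -0.68. For Agt with Ace, Pearson r was 0.59 (permutation test, n = 12, p = 0.0464, adjusted 0.186) and Spearman rho 0.45 (p = 0.149, adjusted 0.469), and r was 0.35 without the 2 farthest libraries.

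Genes whose values followed a member most closely within groups were found by the Pearson correlation of log2 values after removal of the group means, over the 28 libraries and among 6740 other genes of at least median level. The nearest were Gstt3 for Agt (r = 0.70), Psap for Ace (0.70), Gkap1 for Ren1 (0.62), Agk for Agtr1a (0.71), Fam50a for Mme (0.67), Fbxl5 for Enpep (0.70), Ubqln4 for Anpep (0.60) and Pcgf5 for Atp6ap2 (0.65). Within the 12 db/db Unx kidneys of 26 weeks alone the same pairs had r between 0.49 (Pcgf5) and 0.83 (Fbxl5). The next nearest were Ybx3 and Ecm1 for Agt (0.68 and 0.67) and Retreg2 and Shisa5 for Ace (0.69 and 0.66), followed for Ren1 by Pxk and Bmp4 (0.61 and 0.60). Those for the other members were Erh and Wdr36 (Agtr1a, 0.69 and 0.65), Cactin and Gclm (Mme, 0.65 and 0.65), Zdhhc9 and Cdc42 (Enpep, 0.65 and 0.63), Qars (Anpep, 0.60) and Pdha1 and Gmfb (Atp6ap2, 0.63 and 0.60). All share the same libraries, and as the highest of 6740 values they are a description only.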

How the data were processed

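Per the labels' protocols, kidney RNA of 28 libraries was isolated with TRIzol and RNeasy reagents and prepared with Nextera XT, which does not mark strand. DRAGEN and GRCm38 (mm10) are named in the submitters' processing notes. The DRAGEN version, annotation, strand setting and scaling were not given in any source used. The authors deposited normalised signal, 1 value for each gene in each library, and every column was matched to a sample. Between 90.3% and 94.2% of a library's low values fell on whole multiples of 1 step (tolerance 0.1), and the step gave an estimated depth of 21.8 to 30.8 M (mega) reads. Symbols, exons and coordinates came from GENCODE M21 (GRCm38), which matched 14834 of 14845 genes.

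From the deposited values, log2(value + 1) was modelled in limma 3.58.1 (R 4.3.3) for the 13495 genes that reached 1 in 5 or more libraries, using 1 mean per group, trended variances and robust moderation. Tests were two-sided, and p-values were adjusted over all 13495 genes. Genes were called at an adjusted p below 0.05. The fit was tested on simulated data. Correlations used 100000 permutations. Alternatives were the scaling, pseudocount, filter, empirical Bayes settings, groups in the fit, a replicate block and leaving out libraries. The labels give no batch, so a batch and age cannot be told apart. The genes, lists and tests were chosen with earlier results of these data known. Beside the 8 members, the rule for named genes took Mas1, up to 4 called genes of each list with the lowest adjusted p in either disease comparison, and the 3 genes nearest to each member. Lnpep, Klk1, Bdkrb2, Cpm, Cltrn, Dpep1, Ptger4, Nr1h3, Rgs2 and single markers were named after their values were seen. Some genes that the rule took are not reported here.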

Additional observations from a re-analysis of the deposited data

Results flagged for a closer look

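Of 99 groups of 4 to 10 libraries checked for 33 named genes, 6 held a library farther from its neighbours than the range of the group allows at the 95% level, and chance gives about 1 in 20. All 6 were in db/m kidneys, which were checked at both ages. The db/db Unx kidneys were checked only at 35 weeks, because the 26-week group held 12 libraries. Ren1 in db/m at 35 weeks had its highest value, 141, in replicate 3, with the next at 87.6, and at 26 weeks its lowest, 37.7, also in a library numbered 3, with the next at 47.5. Mme in db/m at 35 weeks reached 68.7 in replicate 5, with the next at 58.3. Mas1 in db/m at 35 weeks reached 7.16 in replicate 6, with the next at 3.19. Mep1b reached 124 in the same library, with the next at 111. Kng2 in db/m at 26 weeks reached 245 in replicate 3, with the next at 205. The Ren1 value of 141 touches the called difference at 35 weeks, which was -0.62 with it and -0.45 without it (limma, adjusted p 0.0646).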

How the results depend on the processing

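The disease effects of Agt, Ace, Mme, Agtr1a and Anpep kept their direction and their call under all 26 alternatives at 26 weeks and all 21 at 35 weeks. Ren1, Enpep and the age effects sat near the threshold, and the cause of their changes was not tested. Fitting only the compared groups gave Ren1 -0.41 at 26 weeks (limma, adjusted p 0.0291) and -0.62 at 35 weeks (0.0891), its age effect 0.53 in db/db Unx (0.0490) and 0.74 in db/m (0.0809), and Mme 0.27 with age in db/m (0.0486). Quantile normalisation gave Atp6ap2 0.16 at 26 weeks, Enpep -0.17 at 35 weeks, Agt 0.37 with age in db/m (adjusted p 0.0729, call lost), and turned the sign of Enpep (0.016) with age in db/db Unx, of Ace (0.028) with age in db/m and of the Agt change of disease effect (0.017). Agt with age in db/m was 0.39 without trend and robust fitting, where the call was lost (adjusted p 0.0585). The fit without the 3 libraries that lay apart kept only replicates 1 and 2 of db/db Unx at 35 weeks. It called 2407 genes in place of 4357 at 35 weeks and 8 in place of 1526 with age in db/db Unx. For the change of the disease effect it called 0 in place of 74. In that fit Ren1 was -0.75 and Enpep -0.28 at 35 weeks, and Agt was 0.37 with age in db/db Unx. The change of disease effect was -0.019 for Agtr1a and 0.0036 for Atp6ap2. That change had 41 called genes without trend and robust fitting. Same-numbered libraries did not deviate together (0 of 20 pairs had r above 0.1, and 1 pair correlated best with its own number), so the numbers do not pair the samples. The replicate block gave 483 genes called with age in db/db Unx and 29 for the change of the disease effect, Agt 0.36 with age in db/db Unx (adjusted p 0.101) and 0.38 in db/m (0.0804), so that both Agt age calls were lost, Anpep 0.081 with age in db/db Unx and Agtr1a -0.10 for the change of disease effect. Leaving out 1 library at a time gave 633 to 1748 genes called with age in db/db Unx (lowest without replicate 5 of 35 weeks), 578 to 1140 in db/m (lowest without replicate 5 of 26 weeks) and 7 to 249 for the change of the disease effect (without replicates 5 and 2 of db/db Unx at 35 weeks). The same gave Ren1 -0.48 to -0.37 at 26 weeks and -0.73 to -0.45 at 35 weeks, and Enpep -0.27 to -0.19 at 35 weeks. With age in db/db Unx it gave Ren1 0.41 to 0.62, Agt 0.30 to 0.43, Ace -0.015 to 0.18, Agtr1a -0.085 to 0.049 and Enpep -0.040 to 0.039. With age in db/m it gave Ren1 0.57 to 0.82, Agt 0.29 to 0.49, Ace -0.10 to 0.074 and Agtr1a -0.081 to 0.0071. For the change of the disease effect it gave Agt -0.14 to 0.051, Ace -0.00054 to 0.21, Agtr1a -0.054 to 0.080, Anpep -0.050 to 0.083 and Atp6ap2 -0.074 to 0.020.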

Other observations

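Of 21 listed genes that govern renin release 19 were tested, and 2 rose and 2 fell at 26 weeks and 3 rose and 3 fell at 35 weeks. These counts were below the share of all genes called at 26 weeks (34.9%) and close to it at 35 weeks (32.3%), so they are not a result about the list. Pde3b, a phosphodiesterase that breaks down cyclic AMP, rose by 1.22 ± 0.17 at 26 weeks and by 0.84 ± 0.19 at 35 weeks on the log2 scale, and Adcy6, an adenylyl cyclase that makes it, by 0.27 and 0.52. Slc12a2, a sodium, potassium and chloride cotransporter, fell by 0.59 and 0.67, and Vdr, the vitamin D receptor, by 0.21 and 0.51. At 35 weeks Ptger4, a prostaglandin E receptor, was also called higher (0.95 ± 0.26) and Nr1h3, the liver X receptor alpha, lower (-0.29 ± 0.08). Ptger4 was rare. Its 35-week mean was 3.90 ± 1.21 in db/db Unx (SD, n = 5) and 1.67 ± 1.10 in db/m (SD, n = 6). Without the 3 db/db Unx libraries that lay apart, 1 rose and 2 fell at 35 weeks, and Pde3b at 0.71 (limma, adjusted p 0.0525), Ptger4 at 0.83 (0.113) and Nr1h3 at -0.30 (0.0697) were not called. Ren1 itself was called at 35 weeks and not at 26 weeks.

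Of 11 G proteins and other partners of the type 1 angiotensin receptor, 1 rose and 1 fell at 26 weeks and 2 rose and 2 fell at 35 weeks, which was below and close to the same shares of all genes. Gna12 fell by 0.24 and 0.26, Gna11 rose by 0.15 at 26 weeks, and Gna13 rose by 0.40, Rgs2 rose by 0.40 and Mtus1 fell by 0.26 at 35 weeks. Without the 3 libraries Gna13 was 0.16 (limma, adjusted p 0.349) and Rgs2 0.030 (0.948), both not called. Of the 20 other V-ATPase subunits, 4 rose and 4 fell at 26 weeks and 4 rose and 1 fell at 35 weeks, near the shares of all genes, and 4 rose and 0 fell at 35 weeks without the 3 libraries. Atp6v0a4, a membrane subunit, rose by 0.76 ± 0.10 and 0.56 ± 0.12, and Atp6v0c by 0.20 at both ages. Atp6v1f rose by 0.12 and 0.24, and Atp6v1a fell by 0.21 at 26 weeks. With age, 0 of the 20 rose and 5 fell in db/db Unx, and 0 rose and 6 fell in db/m, where 11.3% and 7.4% of all genes were called, and Atp6ap2 was not called in either. The 5 in db/db Unx included Atp6v0a4 (-0.33) and Atp6v1f (-0.15). In db/db Unx 0 of the 20 were called without the 3 libraries, as the genes called over the whole table dropped to 8, against 1526 with them.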
